A study of Mus musculus with 32 samples.

Results

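The annexins and S100 proteins measured here were Anxa1, Anxa2, Anxa3, Anxa5, S100a4, S100a6, S100a8, S100a9, S100a10 and S100a11. They were taken from both count tables by gene symbol, and make up 10 of the 41585 genes listed. All 10 passed the filter on low counts in females and in males. The libraries were made from mouse liver and fall into 8 groups of 4. Wild-type (WT) C57BL/6J mice were purchased, and Cyp2b-null mice of that background lacked Cyp2b9, Cyp2b10 and Cyp2b13 after CRISPR/Cas9 deletion, so the genotypes were not littermates. Females and males of each genotype, 10 weeks old at the start, ate normal chow (ND) or a high fat diet without choline and with its protein given as L-amino acids (CDAHFD, with 62% fat and 0.1% methionine) for 8 weeks. The CDAHFD is used to bring about nonalcoholic steatohepatitis (NASH), a fatty liver with inflammation and scarring. The comparisons ask how these genes responded to the diet and whether the loss of Cyp2b enzymes altered that response.

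Annexins are cytosolic proteins that bind negatively charged membrane lipids when calcium rises, and they act in membrane repair, vesicle traffic and the ending of inflammation. S100 proteins are small calcium-binding proteins with paired EF-hand loops that work as dimers, some inside the cell and some after release as danger signals. The families meet in complexes. S100a10 joins Anxa2 in a tetramer at the cell surface that gathers plasminogen and its activators, S100a11 binds the N-terminal tail of Anxa1, and S100a8 with S100a9 forms calprotectin, an abundant product of neutrophils and monocytes. In healthy liver, Anxa2 is low in hepatocytes, and S100a4, S100a6 and S100a11 are found mainly in non-parenchymal cells and bile duct cells. In whole liver, more cells of a type and more RNA per cell cannot be told apart.

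Promoters were read from RefSeq on GRCm38.p6 for 8 of the 10 genes, all but Anxa3 and S100a10, as the 250 bases before the gene start. Anxa2 and S100a4 are shown because they had the largest mean diet effect of their family, and S100a11 was added after its motif matches were seen. The capitals mark matches to the motifs searched on both strands, which were TGACTCA (bound by AP-1), TTGCGCAA (C/EBP), GAGGAAG (ETS factors), TATAAA (the TATA box) and CATTCC (TEAD), and no marked match overlaps another. TGAGTCA is TGACTCA read on the opposite strand.
Anxa2: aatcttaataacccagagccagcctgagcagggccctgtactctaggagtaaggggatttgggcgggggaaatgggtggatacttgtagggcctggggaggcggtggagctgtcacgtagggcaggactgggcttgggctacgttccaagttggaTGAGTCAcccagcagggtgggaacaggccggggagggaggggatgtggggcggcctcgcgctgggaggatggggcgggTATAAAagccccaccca
S100a4: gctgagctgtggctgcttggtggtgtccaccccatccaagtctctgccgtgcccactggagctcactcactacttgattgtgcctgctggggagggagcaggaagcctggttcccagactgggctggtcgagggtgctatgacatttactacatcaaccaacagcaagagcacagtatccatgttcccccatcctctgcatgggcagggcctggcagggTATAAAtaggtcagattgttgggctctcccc
S100a11: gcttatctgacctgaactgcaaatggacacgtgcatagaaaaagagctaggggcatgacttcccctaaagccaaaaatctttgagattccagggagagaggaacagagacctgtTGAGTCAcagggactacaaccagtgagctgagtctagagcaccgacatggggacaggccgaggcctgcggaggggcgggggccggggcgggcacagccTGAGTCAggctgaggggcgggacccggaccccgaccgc
The Anxa2 window lies at chr9:69453433-69453682, plus strand, and holds an AP-1 match 95 bases before the start and a TATA match 17 bases before it. The S100a4 window (chr3:90603520-90603769, plus strand) holds only a TATA match, 31 bases before the start. The S100a11 window (chr3:93520246-93520495, plus strand) holds AP-1 matches 136 and 38 bases before the start. Of the 8 windows, 2 held an AP-1 match, 4 a TATA match, 1 an ETS match, 1 a TEAD match and 0 a C/EBP match. Over all 32851 promoter windows of this length, 4.46% held an AP-1 match, 12.4% a TATA match, 10.6% an ETS match, 12.6% a TEAD match and 0.164% a C/EBP match. The Anxa5, S100a6 and S100a9 windows held none of these letters. A match is only a description of the sequence.

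The annexin genes lie apart, Anxa1 on chromosome 19, Anxa2 on chromosome 9, Anxa3 on chromosome 5 and Anxa5 on chromosome 3. The 6 S100 genes lie on chromosome 3, S100a4, S100a6, S100a8 and S100a9 between 90603770 and 90695721 and S100a11 and S100a10 between 93520496 and 93564645. Of 69 genes of other kinds between 90511034 and 93564645, from the first to the last S100 gene of the cluster, 5 were tested in females and 4 in males. Of these, 1 rose with the diet in each of the 4 comparisons, beside 13.9 to 20.3% of all genes tested, and 1 fell in WT females and in Cyp2b-null males. In the annotation Anxa2 overlaps the antisense gene Gm16144, Anxa3 overlaps Gm42603 and S100a4 overlaps Gm42674, the last 2 on the same strand. How reads in such overlaps were counted, and whether by strand, is not given in the sources used here, so these 3 genes carry that uncertainty.

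Libraries held 2906411 to 10166959 counts, so 3 counts stood for 0.246 to 1.17 CPM (counts scaled to the same library size), and intervals made from counts cover counting error only. The libraries are described as 4 per treatment group, not as named mice, so p-values measure the spread between these libraries. Cyp2b9 was at 110 to 613 CPM in WT females and at 0.36 to 1.94 CPM in Cyp2b-null females, and Cyp2b13 was at 81.6 to 423 CPM against 0 to 0.259 CPM. In males the deleted genes were low in WT too, and Cyp2b9 on ND was at 0 to 3.21 CPM in WT and 0.87 to 2.27 CPM in Cyp2b-null males, so it does not check that label. Cyp2b10 on ND was at 5.96 to 14.4 CPM in WT and 0.207 to 0.982 CPM in Cyp2b-null males. Cyp2b9 on CDAHFD also separated the male genotypes, with 13.6 to 67.8 CPM in WT and 0.403 to 0.614 CPM in Cyp2b-null males. The hepatocyte markers, Alb among them, were high in every library, with a summed level of 64374 to 205527 CPM.

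Per kilobase of transcript, S100a10, Anxa5 and Anxa2 were the most abundant of the 10 genes in all 8 groups. In ND-fed WT females their levels were 120 ± 34.9 (SD, n = 4), 52.8 ± 7.46 and 9.92 ± 1.28 CPM per kb, and in ND-fed WT males 129 ± 18.8, 41.4 ± 7.74 and 5.72 ± 1.57 CPM per kb. None of these ranges overlapped within a sex. The other 7 genes lay between 0.57 and 5.17 CPM per kb in these ND-fed WT groups, with S100a8, S100a9 and S100a4 the lowest. On CDAHFD the 3 leading genes came closer, at 200 ± 61.2 CPM per kb for S100a10, 217 ± 52.8 for Anxa5 and 106 ± 44.6 for Anxa2 in WT females. There the ranges of S100a10 and Anxa5 overlapped, and Anxa2 reached 172 CPM per kb at most.

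All 10 genes rose on CDAHFD in every comparison. Called here means a Benjamini-Hochberg adjusted p under 0.05 over all genes tested by edgeR's quasi-likelihood test. The 10 of 10 called higher stood beside 13.9% of all genes in WT females, 16.9% in Cyp2b-null females, 18% in WT males and 20.3% in Cyp2b-null males. S100a4, S100a8 and S100a9 had at most 8 counts in any ND library, so they passed the filter on low counts through CDAHFD libraries. Their calls are thus not independent of that filter. The 10 genes were also chosen with earlier results of these data known. The diet groups did not overlap in 9 of 10 genes in each comparison, against 14.6%, 16.3%, 15.9% and 19.8% of all genes higher without overlap. The median log2 fold change of the 10 genes was 2.70 in WT females, 2.57 in Cyp2b-null females, 2.89 in WT males and 3.76 in Cyp2b-null males, and the median of all genes was between -0.02 and 0.03. The genotypes of a sex share a fit, and their values are given side by side.

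**Figure D1:**
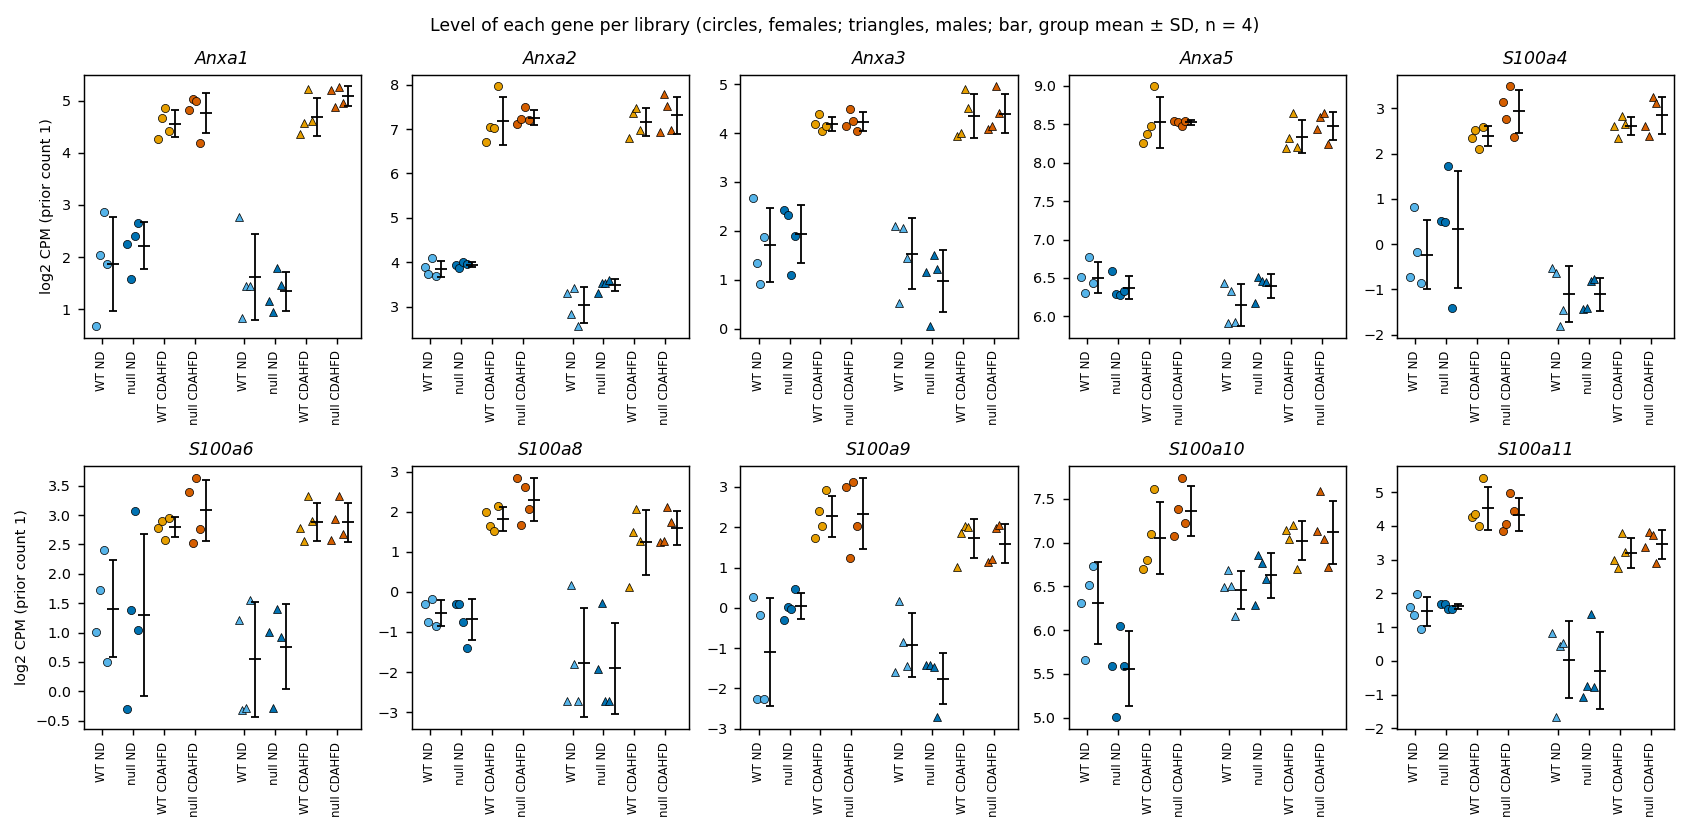
Level of each of the 10 genes in each of the 32 libraries as log2 CPM with a prior count of 1. Circles are females and triangles males, colors mark genotype and diet, and the bars are the group mean ± SD of 4 libraries. The CDAHFD group means sit above the ND group means of the same sex and genotype in each panel, and libraries of the diets overlap only in S100a6, S100a8 and S100a10.

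Anxa2, the lipid- and actin-binding annexin of the plasma membrane, ranked among the 16 most significant of all genes in each comparison. ND-fed WT females had 14.6, 13.2, 16.9 and 12.8 CPM and CDAHFD-fed WT females 104, 133, 130 and 249 CPM. ND-fed Cyp2b-null females had 15.1, 14.4, 15.9 and 15.3 CPM and CDAHFD-fed Cyp2b-null females 138, 149, 179 and 148 CPM. Every CDAHFD-fed female was several times above every ND-fed female, and the fourth CDAHFD-fed WT female was the highest. The log2 fold change was 3.43 (SE 0.22, edgeR adjusted p = 6.69e-10) in WT and 3.34 (SE 0.22, adjusted p = 8.05e-10) in Cyp2b-null females. ND-fed WT males had 9.75, 6.97, 10.6 and 5.78 CPM and CDAHFD-fed WT males 112, 164, 177 and 126 CPM. ND-fed Cyp2b-null males had 9.71, 11.4, 11.4 and 12 CPM and CDAHFD-fed Cyp2b-null males 122, 221, 184 and 127 CPM. The male diet groups were as clearly apart, with a log2 fold change of 4.11 (SE 0.23, adjusted p = 5.38e-11) in WT and 3.90 (SE 0.22, adjusted p = 8.22e-11) in Cyp2b-null males. The WT male change is 17.2-fold.

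S100a10, the small partner of Anxa2, was already high on ND and had the smallest rise of the 10 genes in WT females and in males of both genotypes. ND-fed WT females had 79.4, 50.1, 91.6 and 107 CPM and CDAHFD-fed WT females 104, 111, 137 and 196 CPM. The fourth ND-fed female lay above the first CDAHFD-fed female, so these groups overlapped. ND-fed Cyp2b-null females had 48.1, 31.9, 66.1 and 48 CPM and CDAHFD-fed Cyp2b-null females 135, 167, 214 and 150 CPM, with a wide gap between the diets. The log2 fold change was 0.74 (SE 0.23, edgeR adjusted p = 0.0256) in WT and 1.79 (SE 0.24, adjusted p = 1.39e-05) in Cyp2b-null females. ND-fed WT males had 89.8, 103, 90.8 and 71.5 CPM and CDAHFD-fed WT males 141, 132, 147 and 104 CPM. ND-fed Cyp2b-null males had 77.8, 116, 109 and 95.9 CPM and CDAHFD-fed Cyp2b-null males 140, 193, 132 and 105 CPM. The male groups lay close together, just apart in WT and overlapping in Cyp2b-null mice. The log2 fold change was 0.56 (SE 0.17, adjusted p = 0.0143) and 0.52 (SE 0.17, adjusted p = 0.0188). S100a10 was no longer called without ND-fed WT male 4 in WT males (adjusted p = 0.0536), nor without ND-fed Cyp2b-null male 1 or CDAHFD-fed Cyp2b-null male 2 in Cyp2b-null males, where the highest adjusted p was 0.110. In WT females the call was lost without ND-fed WT female 1 or 2 or CDAHFD-fed WT female 4, with adjusted p up to 0.137.

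The ratio of S100a10 to Anxa2 counts in a library shows how unequally the partners rose. It was 3.79 to 8.34 in ND-fed and 0.789 to 1.06 in CDAHFD-fed WT females, and 2.22 to 4.15 against 0.979 to 1.19 in Cyp2b-null females. In males it was 8.56 to 14.7 against 0.804 to 1.26 in WT and 8.01 to 10.18 against 0.714 to 1.14 in Cyp2b-null mice. All 16 CDAHFD libraries lay between 0.714 and 1.26, and no diet groups overlapped. The mean log2 ratio, from CPM with a prior count of 1, fell by 2.58 in WT females, 1.52 in Cyp2b-null females, 3.56 in WT males and 3.33 in Cyp2b-null males.

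**Figure D2:**
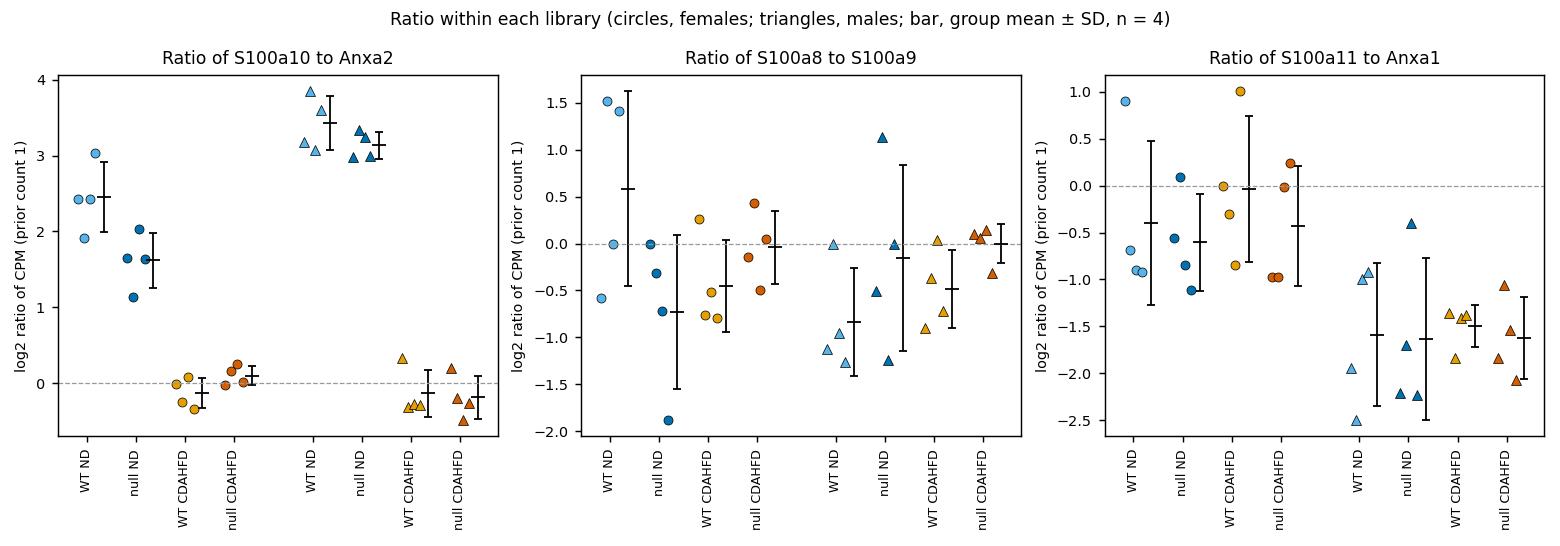
log2 ratio of CPM (prior count 1) within each library for the partner genes S100a10 and Anxa2, S100a8 and S100a9, and S100a11 and Anxa1. Circles are females, triangles males, and bars the mean ± SD of 4 libraries. In the left panel every ND library lies above every CDAHFD library, and in the other panels the diets overlap.

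Anxa1, which dampens the recruitment of neutrophils through formyl peptide receptors, rose from a low level. ND-fed WT females had 1.4, 3.88, 7.1 and 3.45 CPM and CDAHFD-fed WT females 19.1, 25.1, 28.8 and 21.2 CPM, a log2 fold change of 2.67 (SE 0.32, edgeR adjusted p = 2.74e-06). Cyp2b-null females had 2.8 to 6.06 CPM on ND and 18.1 to 32.6 CPM on CDAHFD, a log2 fold change of 2.57 (SE 0.30). The diets were well separated in females of both genotypes. ND-fed WT males had 6.68, 1.62, 2.55 and 2.57 CPM and CDAHFD-fed WT males 20.3, 23.7, 37 and 24.2 CPM, a log2 fold change of 2.99 (SE 0.29, adjusted p = 1.03e-07). Cyp2b-null males had 1.78 to 3.3 CPM on ND and 29.1 to 38.4 CPM on CDAHFD, a log2 fold change of 3.81 (SE 0.30, adjusted p = 6.25e-09). The first ND-fed WT male stood above the other ND-fed males.

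Anxa3, an annexin of neutrophil granules and of some epithelia, rose by a log2 fold change of 2.29 in WT females, 2.23 in Cyp2b-null females, 2.78 in WT males and 3.44 in Cyp2b-null males (SE 0.27 to 0.34). It was at 0.892 to 6.18 CPM in the 16 ND libraries and at 15.3 to 30.8 CPM in the 16 CDAHFD libraries. Anxa5, which binds phosphatidylserine and is used to stain dying cells, rose from 77.8 to 109 CPM on ND to 304 to 508 CPM on CDAHFD in females, and from 60 to 90.8 CPM to 291 to 402 CPM in males. The log2 fold changes of Anxa5 were 2.04, 2.15, 2.18 and 2.09 in WT females, Cyp2b-null females, WT males and Cyp2b-null males, with an SE of 0.15 to 0.16 and edgeR adjusted p between 1.27e-09 and 8.38e-09. Neither gene overlapped between diets in any comparison.

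S100a8 and S100a9, the calprotectin subunits, were close to the detection limit on ND. S100a8 had 3, 1, 2 and 2 counts in ND-fed WT females and 2, 3, 1 and 1 in ND-fed Cyp2b-null females, against 17, 12, 13 and 26 and 27, 18, 33 and 32 counts on CDAHFD. With so few ND counts the pooled ratio of CDAHFD to ND is given with its 95% counting interval, and it was 7.03 (3.37 to 16.9) in WT and 11.2 (5.26 to 28.5) in Cyp2b-null females. Every CDAHFD-fed female held more S100a8 CPM than every ND-fed female. In WT males S100a8 had 0, 6, 1 and 0 counts on ND and 5, 13, 35 and 13 on CDAHFD, and the second ND library (0.973 CPM) overlapped the first CDAHFD library (0.931 CPM). In Cyp2b-null males it had 1, 3, 0 and 0 counts on ND and 14, 22, 51 and 16 on CDAHFD, a pooled ratio of 17.9 (6.77 to 66.8). The edgeR adjusted p of S100a8 ran from 7.73e-06 in Cyp2b-null females to 0.00262 in WT males.

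S100a9 had 5, 0, 2 and 0 counts in ND-fed and 14, 21, 19 and 46 in CDAHFD-fed WT females, and 2, 4, 2 and 7 against 30, 13, 47 and 31 in Cyp2b-null females. In males it had 1, 6, 3 and 1 against 10, 17, 34 and 22 counts in WT, and 2, 1, 1 and 0 against 13, 21, 46 and 20 in Cyp2b-null mice. In CPM the diets did not overlap in any of the 4 comparisons. The log2 fold change of S100a9 was 3.45 (SE 0.64) in WT females, 2.58 (SE 0.55) in Cyp2b-null females and 2.80 (SE 0.49) in WT males, and the pooled ratio in Cyp2b-null males was 17.4 (6.57 to 64.9). On CDAHFD the ratio of S100a8 to S100a9 counts was 0.5 to 1.38, and the log2 ratio overlapped between diets in each comparison.

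S100a4, a marker of motile fibroblasts and macrophages also called FSP1, had the largest mean diet effect of the S100 genes. In females it had 2, 4, 2 and 2 counts in ND-fed WT and 4, 6, 8 and 1 in ND-fed Cyp2b-null mice, against 22, 23, 20 and 36 and 33, 40, 61 and 40 on CDAHFD. The log2 fold change was 2.97 (SE 0.53, edgeR adjusted p = 0.000275) and 2.66 (SE 0.45, adjusted p = 0.000148), and the diets did not overlap. In males it had 3, 3, 1 and 1 counts in ND-fed WT and 2, 1, 2 and 2 in ND-fed Cyp2b-null mice, against 32, 24, 61 and 35 and 38, 50, 115 and 42 on CDAHFD. The pooled ratio in males was 18.3 (9.06 to 43.2) in WT and 24.3 (11.6 to 61.1) in Cyp2b-null mice. The ND libraries of both genotypes were thus at the detection limit and the CDAHFD libraries well above it, at 4.9 to 9.43 CPM.

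S100a6, or calcyclin, which is expressed by proliferating and fibroblastic cells, rose less and varied more on ND. ND-fed WT females had 1.79, 3.11, 5.07 and 1.21 CPM and CDAHFD-fed WT females 6.67, 7.25, 5.72 and 7.55 CPM, a log2 fold change of 1.43 (SE 0.48, edgeR adjusted p = 0.0341). ND-fed Cyp2b-null females had 0.605, 2.4, 8.16 and 1.85 CPM and CDAHFD-fed Cyp2b-null females 10.4, 5.57, 12.2 and 6.57 CPM, a log2 fold change of 1.56 (SE 0.45, adjusted p = 0.0129). The third ND-fed Cyp2b-null female reached into the CDAHFD range. S100a6 was not called in WT females without ND-fed WT female 1 or 4 or CDAHFD-fed WT female 1, 2 or 4 (edgeR adjusted p up to 0.134), nor in Cyp2b-null females without ND-fed Cyp2b-null female 4 (edgeR adjusted p = 0.0556). In males the diets did not overlap, at 0.649 to 2.78 against 5.72 to 9.88 CPM, and the log2 fold change was 2.33 (SE 0.39) in WT and 2.11 (SE 0.37) in Cyp2b-null mice.

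S100a11, or calgizzarin, the partner of Anxa1, rose in all 4 comparisons. ND-fed WT females had 2.79, 2.33, 3.72 and 1.73 CPM and CDAHFD-fed WT females 19.1, 20.3, 15.9 and 42.9 CPM, a log2 fold change of 3.27 (SE 0.35, edgeR adjusted p = 9.65e-07). Cyp2b-null females had 2.69 to 3.03 CPM on ND and 14.2 to 31.1 CPM on CDAHFD, a log2 fold change of 2.86 (SE 0.34). The fourth CDAHFD-fed WT female, which stood far above its group, was the highest of its group for 8 of the 10 genes, all but Anxa1 and Anxa3. Without it 8 of the 10 genes were called in WT females, all but S100a6 and S100a10, and the log2 fold change was 2.84 for S100a11 and 3.09 for Anxa2. ND-fed WT males had 1.63, 0.162, 1.21 and 1.28 CPM and CDAHFD-fed WT males 7.82, 6.53, 13.8 and 9.24 CPM, a log2 fold change of 3.15 (SE 0.46, adjusted p = 1.9e-05). The third CDAHFD-fed WT male was the highest of its group for all 10 genes. The third CDAHFD-fed Cyp2b-null female and male were each the highest of their group for 6 of the 10 genes. ND-fed Cyp2b-null males had 0.327, 0.446, 2.48 and 0.435 CPM and CDAHFD-fed Cyp2b-null males 10.3, 13.9, 13.1 and 7.26 CPM, a log2 fold change of 3.70 (SE 0.48, adjusted p = 3.01e-06). The diets did not overlap. The count ratio of S100a11 to Anxa1 was 0.444 to 2.02 in females and 0.1 to 0.75 in males, with the diets overlapping in each comparison. S100a11 has a processed pseudogene on chromosome 12, S100a11-ps, which held 0 to 2 counts in every library, and how reads mapping to both were counted is not given in the sources used here.

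**Figure D3:**
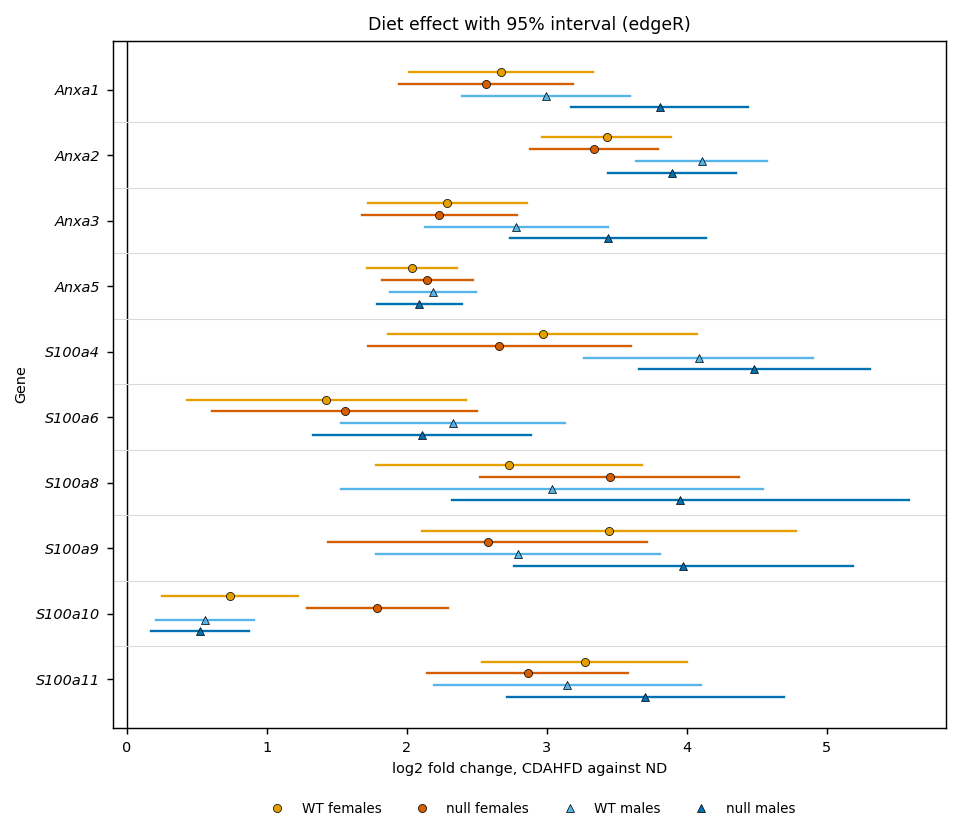
log2 fold change of CDAHFD against ND for each gene with its 95% interval from edgeR, in WT and Cyp2b-null females (circles) and males (triangles). All 40 intervals lie above 0, and S100a10 has the smallest change in WT females and in males of both genotypes.

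No gene was called between the genotypes. On ND 0 of 10 were called by edgeR in females and 0 of 10 in males, beside 0.0756% and 0.0371% of all genes, and on CDAHFD 0 of 10 and 0 of 10, beside 0.0227% and 0.0297%. At an unadjusted p under 0.05 edgeR and DESeq2 each gave 1 gene in ND-fed females and 0 in the other 3 comparisons. By edgeR 759 of all 13226 genes passed this in ND-fed females, so 1 of 10 does not stand out. The gene was S100a10. Its level was 81.9 ± 23.9 CPM (SD, n = 4) in ND-fed WT and 48.5 ± 14 CPM in ND-fed Cyp2b-null females, and the groups overlapped between 50.1 and 66.1 CPM. The log2 difference was -0.78 (95% interval -1.28 to -0.27, edgeR unadjusted p = 0.00424, adjusted p = 0.571). Of all alternatives only the one without the filter on low counts called it (adjusted p = 0.00259).

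The intervals of the genotype difference were narrow for some genes and wide for others. For Anxa5 they ran from -0.45 to 0.18 on ND and -0.33 to 0.28 on CDAHFD in females, and from -0.07 to 0.53 and -0.15 to 0.43 in males. For Anxa2 they ran from -0.40 to 0.57 and -0.40 to 0.39 in females, and from -0.11 to 0.89 and -0.20 to 0.56 in males. Larger genotype differences of these genes lie outside the 95% interval. For Anxa1 the CDAHFD interval was -0.29 to 0.73 in females and -0.13 to 0.84 in males. S100a8 on ND could have differed by -1.59 to 1.16 in females and -3.02 to 1.67 in males, and S100a9 by -0.78 to 2.77 and -2.94 to 0.29. On CDAHFD S100a8 had an interval of -0.13 to 1.14 in females and -0.82 to 1.29 in males.

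**Figure D4:**
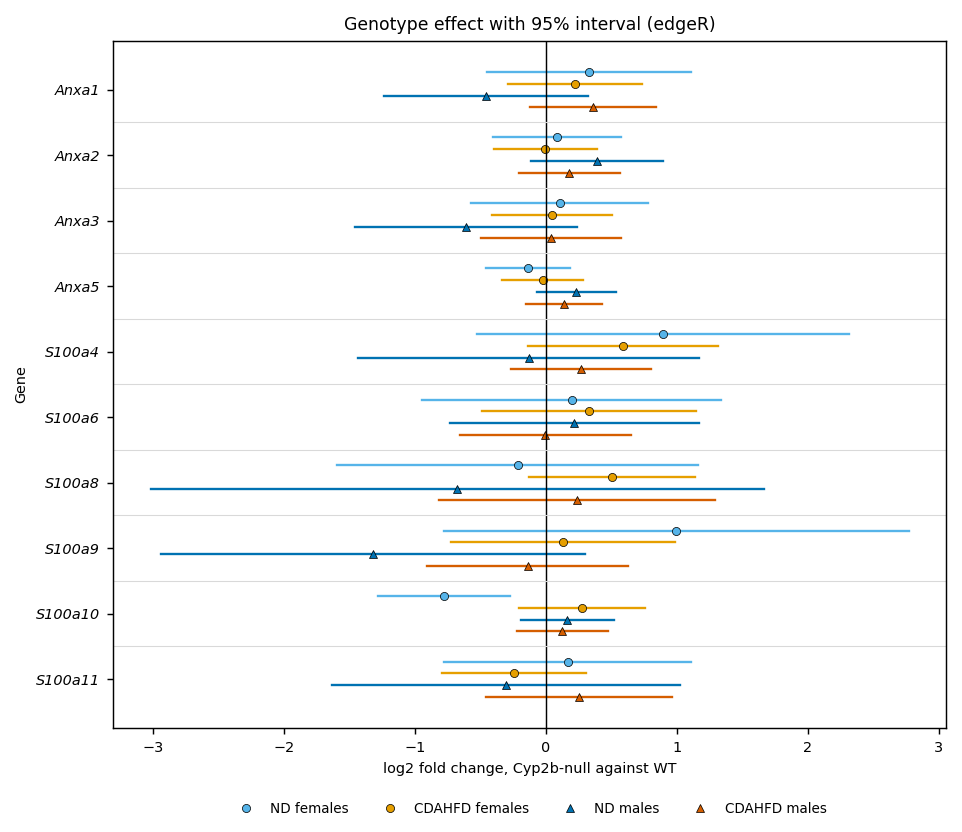
log2 fold change of Cyp2b-null against WT for each gene with its 95% interval from edgeR, on ND and on CDAHFD in females (circles) and males (triangles). All intervals but that of S100a10 in ND-fed females cross 0, and that of S100a8 in ND-fed males is the widest.

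The diet effect was not called different between the genotypes for any gene. The test of the interaction called 0 of 10 in females and 0 of 10 in males by edgeR, beside 0% and 0.00743% of all genes, and DESeq2 also called 0. At an unadjusted p under 0.05 both tools gave 1 gene in females and 0 in males. By edgeR 830 of all 13226 genes passed this in females, so 1 of 10 does not stand out. In females the S100a10 estimate was 1.05 on the log2 scale, with the larger diet effect in Cyp2b-null mice (95% interval 0.36 to 1.75, unadjusted p = 0.00486, adjusted p = 0.759), and it passed only without the filter on low counts (adjusted p = 0.00619). In males Anxa1 had the largest estimate relative to its error, 0.81 (95% interval -0.10 to 1.73).

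The diet effect of males was compared with that of females in a fit of all 32 libraries. In WT mice 0 of 10 genes were called by edgeR and by DESeq2, beside 0.97% of all genes. By each tool 1 gene had an unadjusted p under 0.05. By edgeR so did 1438 of all 14020 genes, so 1 of 10 does not stand out. The gene was Anxa2, with an estimate of 0.70 on the log2 scale, males minus females (95% interval 0.05 to 1.36, edgeR unadjusted p = 0.0358, adjusted p = 0.426). In Cyp2b-null mice 1 of 10 was called, beside 3.4% of all genes called and 1.31% called lower. S100a10 rose less in Cyp2b-null males than in Cyp2b-null females, by a log2 difference of -1.25 (SE 0.31, adjusted p = 0.0191). Its ND levels were 77.8 to 116 CPM in Cyp2b-null males and 31.9 to 66.1 CPM in Cyp2b-null females, and its CDAHFD levels overlapped at 105 to 193 and 135 to 214 CPM. The call was lost without CDAHFD-fed Cyp2b-null female 3 and male 4, the libraries missing from the study's heat maps (log2 difference -0.98, adjusted p = 0.107), without CDAHFD-fed Cyp2b-null female 3 alone (adjusted p = 0.0501), and without ND-fed Cyp2b-null female 2 (adjusted p = 0.0550). Anxa1, Anxa3 and S100a4 had estimates of 1.26, 1.23 and 1.83 in the other direction, with adjusted p between 0.127 and 0.143.

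Of 8 other annexins 5 were tested, and 2 rose in WT females and 3 in each of the other comparisons, with a median log2 fold change of 0.33 to 0.45. Anxa4, an annexin of secretory epithelia, rose by 0.56 to 0.85 and Anxa7 by 0.33 to 0.45 in all 4 comparisons, and Anxa9 rose by 0.95 to 1.11 in 3. Anxa6 and Anxa11 were not called. Of 10 other S100 genes 3 were tested and 0 rose. S100a1, known from muscle, fell by 0.55 in WT females, 0.95 in WT males and 0.83 in Cyp2b-null males, and S100a13 fell by 0.58 in WT males. Scaling by library size alone, which put the median of all genes at 0.28 to 0.37, left the sign of these called changes in place but none of the 4 falls called. With that scaling 3 of the 8 other family genes tested were called higher in WT females and 5 in each of the other comparisons, among them Anxa6 in the latter 3, Anxa11 in WT males and S100a16 in Cyp2b-null mice of both sexes. Of all 13226 genes in females, that scaling called 3898 higher in WT and 4002 in Cyp2b-null mice, against 1838 and 2240 before. Of all 13460 genes in males, it called 5102 higher in WT and 5147 in Cyp2b-null mice, against 2426 and 2737 before.

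The partners, receptors and regulators of these proteins were read from a list of 16 genes, of which 14 were tested in females and 13 in males. In WT females 7 rose and 2 fell, in Cyp2b-null females 5 and 1, and in males of each genotype 7 and 2. Scaling by library size alone, which also called more of all genes higher, gave 9 and 1 in WT females and 10 and 1 in Cyp2b-null females. It gave 9 and 0 in males of each genotype. Without CDAHFD-fed Cyp2b-null female 3, 8 rose and 2 fell in Cyp2b-null females. In the main fits, 1355 of all 13226 genes in females were called lower in WT and 1834 in Cyp2b-null mice. Of all 13460 genes in males, 2017 were called lower in WT and 2301 in Cyp2b-null mice. The few falls of partner genes do not stand out from these counts. Plaur, the urokinase receptor, rose in all 4 comparisons, from 0 to 5 counts in ND libraries to 18 to 105 counts in CDAHFD libraries. Plat, tissue plasminogen activator, rose in all 4 as well, from 0 to 9 counts to 9 to 82 counts. Plau, urokinase, rose by a log2 fold change of 2.26 to 3.88. Plg, plasminogen itself and a hepatocyte product, fell by 0.42 to 0.62 in the 4 comparisons, although with scaling by library size alone the fall was called only in females. Ahnak, a large scaffold that binds the S100a10 and Anxa2 complex, rose by 1.19 to 2.03.

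Of the receptors, Tlr4, a receptor for calprotectin, rose by 0.73 in Cyp2b-null females, 2.23 in WT males and 1.86 in Cyp2b-null males, and its value in WT females was 0.32 (SE 0.28). Fpr1, a receptor for Anxa1 and formyl peptides, was not called in any comparison (log2 fold change -0.25 to 0.74). Fpr2, another formyl peptide receptor, was tested in females only. It was at 0.83 in each genotype and not called (edgeR adjusted p = 0.147 in WT and 0.139 in Cyp2b-null females). With scaling by library size alone it was called in both (edgeR adjusted p = 0.0332 and 0.0494). Ager, the RAGE receptor, is listed at 0 in all 32 libraries, which does not show whether it was absent or not counted. Cacybp, which binds S100a6, fell by 0.63 in WT females, 0.37 in WT males and 0.54 in Cyp2b-null males. Its value in Cyp2b-null females was -0.56 and not called (edgeR adjusted p = 0.0507). With scaling by library size alone none of the Cacybp calls remained, and the WT male value turned to 0.02. Pla2g4a, the phospholipase that Anxa1 restrains, rose by 0.89 in WT females, 2.06 in WT males and 2.08 in Cyp2b-null males. Its value in Cyp2b-null females was 0.79 and not called (edgeR adjusted p = 0.0620). With scaling by library size alone that value was 1.05 and called (edgeR adjusted p = 0.0159).

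**Figure D5:**
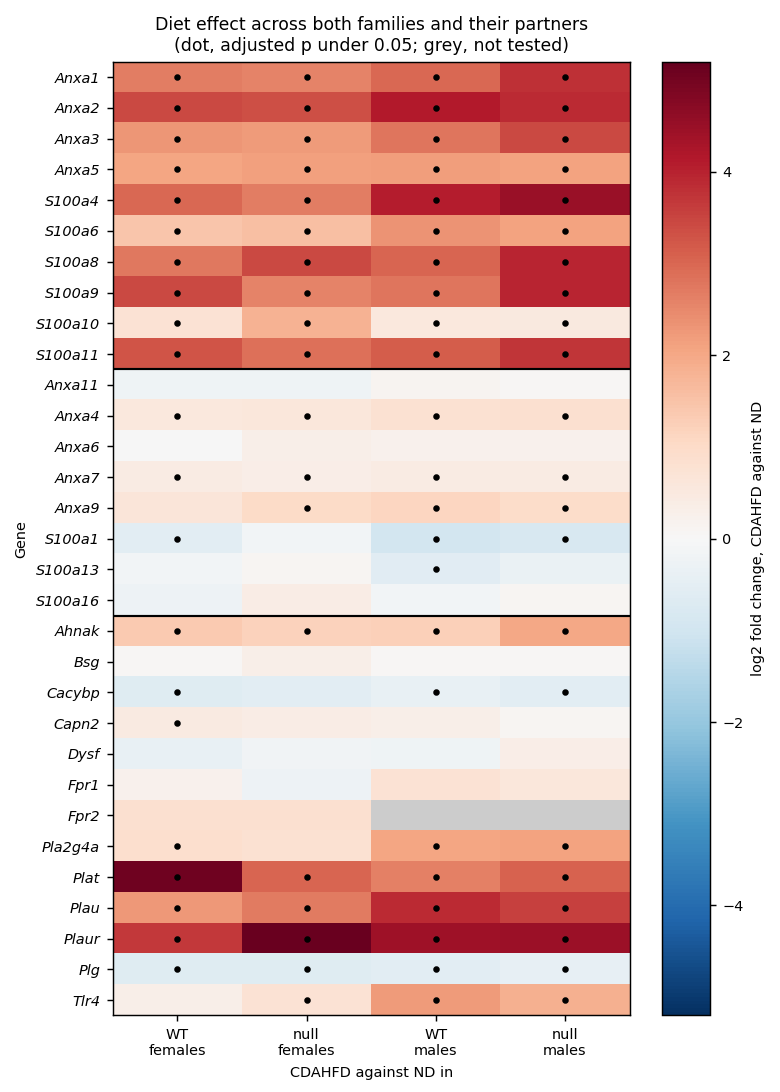
log2 fold change of CDAHFD against ND as color for the 10 genes (top), the other annexins and S100 genes that passed the filter (middle), and the partners and receptors reported here (bottom), in the 4 comparisons. Dots mark an edgeR adjusted p under 0.05 and grey a gene not tested. Every cell of the top block holds a dot, and S100a1, S100a13, Plg and Cacybp are the genes that fell.

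Some lists of cell markers rose with these genes, and others fell or were mixed. The list of recruited monocyte or macrophage markers was summed to 122 to 208 CPM in ND-fed and 678 to 1159 CPM in CDAHFD-fed females, and to 52.4 to 93.1 against 664 to 1820 CPM in males, and 8 of its 9 genes were tested and rose in all 4 comparisons, with Trem2 listed at 0 throughout. The stellate cell or myofibroblast markers summed to 317 to 413 against 687 to 983 CPM in females and 164 to 245 against 565 to 1020 CPM in males, and 8 to 11 of 12 rose. Of the hepatocyte markers 5 or 6 of 8 fell in each comparison, beside the counts of all genes called lower given above. Over all marker lists 9, 10, 9 and 8 genes fell in WT females, Cyp2b-null females, WT males and Cyp2b-null males, and 6, 7, 3 and 4 did with scaling by library size alone. Of the 12 neutrophil markers, set beside S100a8 and S100a9, only Csf3r passed the filter, and it rose. Ly6g is listed at 0 in every library, which, as for Trem2, does not show whether it was absent or not counted, and the summed level of the list was 0.669 to 5.74 CPM on ND and 7.26 to 18 CPM on CDAHFD. Of the Kupffer cell markers 1 to 3 of 5 rose and 1 or 2 fell, and of the bile duct markers 1 or 2 of 4 tested rose. Of the endothelial markers 0 rose and 2 or 3 of 7 fell in females, and 1 or 4 rose and 0 or 1 fell in males. Of the lymphocyte markers 2 of 8 were tested in females, with 0 or 1 called, and 0 in males. Of the 4 mesothelial markers 2 were tested in females and 3 in males, and 1 fell, in Cyp2b-null males only. Of the 3 erythroid markers 1 rose in females of each genotype, and 1 fell in males of each genotype. The part of other cells in the rise of the 10 genes was not tested.

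For each of the 10 genes, the genes that varied most like it from library to library were sought, and the rest of the 10 were left out. The mean of each group was first taken away, and the search used a set of 12955 genes over the 16 libraries of each sex. The correlation of residuals, averaged over the sexes, is a description with no test, and libraries share depth and composition. Each value is also the top of a search over 12955 genes. How high an r such a search gives by itself was not tested, so the genes named below are not shown to be related. Anxa1 was most like Col1a1 (r = 0.81), a collagen of scar tissue, followed by Prss23 (0.78). Anxa2 was most like Psmd8 (0.76) and Myl12b (0.76), a myosin light chain, and Anxa5 was most like Myl12b (0.78) and Spp1 (0.74), the osteopontin gene. S100a9 was most like Il1b (0.73), the interleukin-1 beta gene, and S100a8 was most like Ccnh (0.68) and Lrrc25 (0.67). S100a10 was most like Krt8 (0.80), a keratin of liver epithelium, and the glycolytic gene Tpi1 (0.79). S100a11 was most like Gm8129 (0.81) and Rpl14 (0.81), S100a6 like Ms4a4c (0.74) and Cx3cl1 (0.74), S100a4 like Smyd3 (0.68) and Anxa3 like Arf2 (0.76). Among the 10 themselves, Anxa2 and Anxa5 had r = 0.82 in females and 0.84 in males. S100a8 and S100a9 had r = 0.52 in females and 0.81 in males.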

How the data were processed

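Liver RNA was measured by RNA-seq in 32 libraries, 4 in each of 8 groups named by genotype, diet and sex in the labels. The deposited tables hold raw counts per gene, made by the authors against GRCm38.p6. The submitters' processing notes name FastQC, Trimmomatic, GSNAP, Subread (featureCounts) and edgeR. Versions, strand and multiple-mapping settings are not given in the sources used here. All columns were used.

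Counts were filtered (filterByExpr, minimum count 10), scaled by TMM and tested with edgeR 4.0.16 (quasi-likelihood, R 4.3.3), 16 libraries of a sex together (13226 genes in females, 13460 in males) and all 32 for the sex comparison (14020 genes), with Benjamini-Hochberg adjustment over all genes. SE and 95% intervals come from the F statistic. Pooled ratios compare summed counts over scaled library sizes, with an exact counting interval. Lengths come from GENCODE vM21 and promoters from RefSeq. Code was tested on simulated data.

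Alternatives were DESeq2 1.42.0, RLE or library size scaling, other filters, a replicate block, fits of only the groups compared, and leaving out libraries. The 10 genes, the lists of family, partner and marker genes and the tests were chosen with earlier results of these data known. The genes named were these, called genes of the lists, and the 3 genes outside the 10 most like each of them. The Csf3r, Trem2, Ly6g and Ager values were singled out after they were seen. A few items under these rules are not reported here.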

Additional observations from a re-analysis of the deposited data

Results flagged for a closer look

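In 6 of the 80 groups of 4 libraries examined, over the 10 genes, the highest or lowest library stood far from the other 3 by Dixon's criterion, and chance gives about 1 in 20. Anxa5 was 96.5 CPM in ND-fed Cyp2b-null female 1, against 77.8 to 80.4 CPM in the other 3. S100a11 was 42.9 CPM in CDAHFD-fed WT female 4, against 15.9 to 20.3 CPM, and 2.48 CPM in ND-fed Cyp2b-null male 3, against 0.327 to 0.446 CPM. S100a8 was 0.973 CPM in ND-fed WT male 2 and 0.669 CPM in ND-fed Cyp2b-null male 2, which are 6 and 3 counts. S100a9 was 0 CPM in ND-fed Cyp2b-null male 4, against 0.207 to 0.223 CPM, which are 1 or 2 counts.

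The diet effect of S100a10 differed between the sexes in Cyp2b-null mice by -1.25 on the log2 scale, males minus females, by a test of the difference itself (edgeR adjusted p = 0.0191). In WT mice the difference was -0.15 (adjusted p = 0.936), and whether the genotypes differ in it was not tested.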

How the results depend on the processing

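The count of the 10 genes called higher on CDAHFD stayed at 10 in each of the 4 comparisons under DESeq2, RLE scaling, library size scaling, both other filters, and without the 2 libraries missing from the heat maps. Leaving out 1 library at a time gave 8 to 10 in WT females and 9 to 10 in the other 3. With only the groups compared in the fit it was 9 in WT males, where S100a8 did not pass the filter, and 10 in the other 3. No diet effect of the 10 genes turned its sign in these alternatives. Without the filter on low counts 1 gene (S100a10) was called between genotypes in ND-fed females, 1 (S100a10) in the female interaction and 3 in the sex comparison of Cyp2b-null mice, which had 1, and the cause was not tested. That last count was 0 without the 2 libraries and 0 to 2 when 1 library was left out. Replicate numbers are shared between groups. Over all genes tested with a mean of at least 1 CPM, libraries with the same number did not deviate together (correlation -0.10 to 0.16 in females, -0.18 to 0.28 in males). Among the 10 genes, replicate 3 was the highest for 10 in CDAHFD-fed WT males. It was so for 6 in ND-fed WT females and in CDAHFD-fed Cyp2b-null mice of each sex. In ND-fed Cyp2b-null mice of each sex it was so for 4, and in CDAHFD-fed WT females and ND-fed WT males for 1. Whether the 10 genes share a replicate effect was not tested. With the replicate block the 10 genes were called in all 4 diet comparisons. On ND, S100a8, S100a9 and S100a4 rest on 0 to 8 counts per library, and S100a6 on 2 to 21. In ND-fed males S100a11 rests on 1 to 12 counts per library. Such low counts limit the fold changes of these genes.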
